A study of Cricetulus griseus with 16 samples.

Results

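The 10 genes of ER-associated degradation (ERAD) examined here were followed in heated Chinese hamster ovary cells. They were taken by name from the table of read counts, ignoring upper and lower case, and all 10 of the 10 names were found once each among the 20824 genes listed. They are Syvn1, Sel1l, Herpud1, Derl1, Derl2, Selenos, Os9, Edem1, Edem2 and Edem3. All 10 passed the filter on low counts in every comparison, and their counts lay between 103 (Derl2) and 4904 (Edem3) in the libraries used.

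ERAD is the route by which proteins that fail to fold in the endoplasmic reticulum (ER) are recognised, drawn back into the cytosol, marked with ubiquitin and handed to the proteasome. The ubiquitin ligase Hrd1 (gene Syvn1) and its partner Sel1l form the core of one such route in the ER membrane. Lectins and mannosidase-like proteins bring glycoproteins to that core, and several of its genes are known targets of the unfolded protein response (UPR), the programme that ER stress sets off.

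The cells were CHO (ATCC CCL-61), an established line from the ovary of a Chinese hamster, grown with fetal bovine serum in Ham's F-12K medium and plated a day before heating. Total RNA was sequenced from 4 unheated cultures kept at 37 °C, from 8 cultures brought to 40 °C, of which 4 were taken after 1 h and 4 after 6 h, and from 4 cultures given 1 h at 42.5 °C. Replicates are lettered A to D in each group. No agent, transgene or deletion was added in any group, all cultures came from the same line, and the sequenced cells had no recovery at 37 °C after heat. The comparisons ask how RNA levels depend on the temperature and on the length of the heat. The labels give no time for the 37 °C cultures. Whether any of them was kept as long as the 6 h group is not given. The length of the heat therefore cannot be told apart from the time in culture.

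Total counts were between 10504192 and 14668365 per library, so that 3 counts correspond to 0.205 to 0.286 CPM, that is counts scaled to library size. Levels below are CPM scaled by edgeR's TMM factors, as mean ± SD with n = 3 at 37 °C and n = 4 in each heated group. A gene is said to have risen or fallen where edgeR's quasi-likelihood test gave a Benjamini-Hochberg adjusted p under 0.05 over all genes tested, and it is called a differentially expressed gene (DEG) where it also changed at least 1.5-fold. The 37 °C library D was left out of the levels and tests, because the study left out 1 control and the other 15 libraries carry the counts of its gene table. Pearson's r across 10565 genes was 0.974 to 0.9763 between library D and the other controls and 0.9954 to 0.9961 among those. In library D, Sel1l stood at 58.4 CPM, Edem3 at 239 CPM and Edem1 at 111 CPM, each below the range of controls A to C. The heat shock gene Dnajb1 was at 28.4 ± 1.99 CPM at 37 °C, 87.5 ± 36.5 CPM after 1 h and 44.6 ± 6.66 CPM after 6 h at 40 °C, and 394 ± 127 CPM at 42.5 °C. Vim, a mesenchymal gene of CHO lines, had group means of 2010 to 2330 CPM. The granulosa cell markers Fshr, Foxl2 and Cyp19a1 had 0 counts in every library used. Cdh1, an epithelial marker, was detected at group means of 1.8 to 2.91 CPM, on 22 to 48 counts per library. The other listed markers, Epcam, Ptprc, Pecam1, St6gal1, Mgat3 and Ggta1, had between 0 and 4 counts in each library used.

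Syvn1 carried the largest change among the 10 genes, and it changed at 42.5 °C. The gene (ENSCGRG00001009803) encodes Hrd1, the membrane ubiquitin ligase of the route. Its level was 25.3, 25.9 and 25.4 CPM in the 37 °C libraries A to C. It was 26.4, 25.4, 24.3 and 23.5 CPM after 1 h at 40 °C, and 28.3, 24.1, 27.8 and 23.8 CPM after 6 h at 40 °C. At 42.5 °C it was 16, 13.8, 14.9 and 14.7 CPM, so that the 4 libraries of this group lay below all 11 others used. These levels rest on 140 to 186 counts per library at 42.5 °C and on 294 to 361 counts at 37 °C.

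Against 37 °C, Syvn1 fell by 0.79 on the log2 scale at 42.5 °C (SE 0.08, 95% interval -0.95 to -0.62), a loss of 42.1% of its level (edgeR adjusted p = 1.6e-06). It was the only DEG of the 10 genes in this comparison, in which 7.51% of the 10470 genes tested were DEGs. Neither 40 °C group differed detectably from 37 °C, with log2 fold changes of -0.03 (95% interval -0.18 to 0.11) after 1 h and 0.02 (95% interval -0.15 to 0.19) after 6 h. Syvn1 was called a DEG at 42.5 °C in 14 of 14 fits, which were the reported one and 13 alternatives, with log2 fold changes from -0.82 to -0.75 and adjusted p values of at most 0.000313. These are shares of the RNA of whole cultures, in which a smaller number of cells holding a transcript and less of it in each cell cannot be told apart. In the RefSeq annotation of another assembly (CriGri-PICRH-1.0) Syvn1 overlaps Mrpl49, a mitochondrial ribosomal protein gene, and whether the reads were counted by strand is not given in the sources used here. Mrpl49 differed by -0.18 (log2, SE 0.08, adjusted p = 0.104) at 42.5 °C, and its part in the Syvn1 value was not tested.

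**Figure D1:**
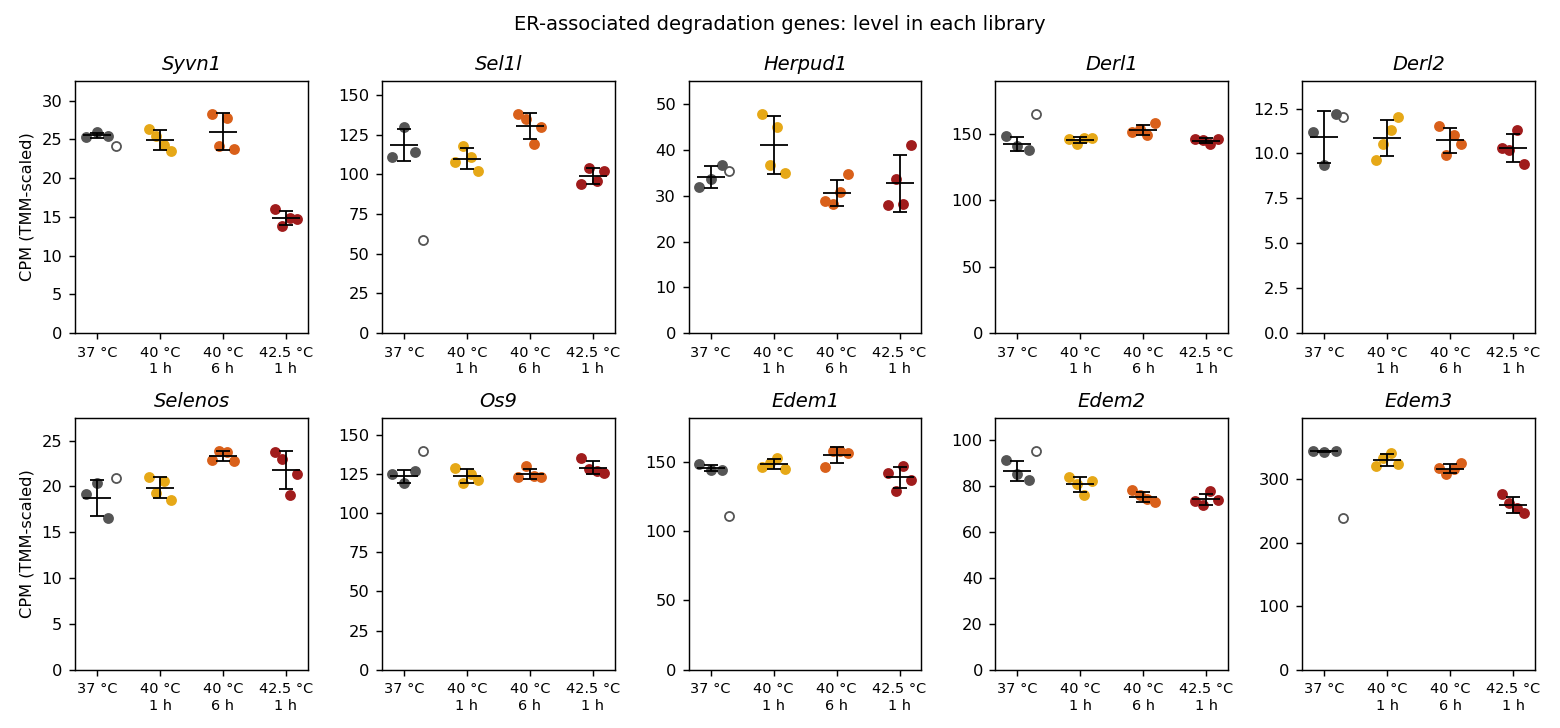
Level of each of the 10 genes in every library, in CPM scaled by TMM (y axis, linear from 0, its own scale in each panel) for the 4 groups (x axis). Filled points are libraries used, the open point is 37 °C library D, which was left out, and the bars give mean ± SD of the filled points; Syvn1 at 42.5 °C sits between 13.8 and 16 CPM, below every other library.

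Sel1l (ENSCGRG00001023783), the adaptor that holds and stabilises Hrd1, fell at 42.5 °C and did not differ detectably from 37 °C in either 40 °C group. Its level was 111, 130 and 114 CPM at 37 °C and 108, 118, 111 and 102 CPM after 1 h at 40 °C. After 6 h at 40 °C it was 138, 135, 119 and 130 CPM. At 42.5 °C the libraries held 93.9, 104, 95.8 and 102 CPM, all below the 37 °C and the 40 °C 6 h libraries and overlapping those of 40 °C 1 h. Sel1l fell by 0.27 (log2, SE 0.06) against 37 °C at 42.5 °C, a loss of 17.1% (adjusted p = 0.00149). With library D among the controls that difference was -0.07 with an adjusted p of 0.853. After 6 h at 40 °C the difference from 37 °C was 0.13 (95% interval -0.00 to 0.27, adjusted p = 0.123), and without 37 °C replicate B it was 0.21 with an adjusted p of 0.0364.

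Herpud1 (ENSCGRG00001024418) encodes a ubiquitin-like membrane protein that assembles with Hrd1 and is a classical target of the UPR. The 37 °C libraries held 32, 33.6 and 36.7 CPM. After 1 h at 40 °C the libraries held 47.9, 36.8, 45 and 34.9 CPM, and after 6 h they held 28.8, 28.3, 30.8 and 34.7 CPM. The 42.5 °C libraries held 27.9, 33.6, 28.3 and 41.2 CPM. Libraries A and C were the highest of the 40 °C 1 h group and the lowest of the 42.5 °C group, and each heated group overlapped the controls. In the reported fit, which has no replicate block, no difference from 37 °C passed the threshold. It was 0.28 (SE 0.10, adjusted p = 0.19) after 1 h and -0.15 (SE 0.08, adjusted p = 0.163) after 6 h at 40 °C, and -0.05 (SE 0.11, adjusted p = 0.715) at 42.5 °C. Without 40 °C 6 h replicate D the second of these was -0.21, with an adjusted p of 0.0489. With the replicate letter as a block in edgeR, each passed. The differences were then 0.35 (adjusted p = 0.00464), -0.22 (adjusted p = 0.0333) and -0.19 (adjusted p = 0.0395) in the same order.

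Derl1 (ENSCGRG00001011500) and Derl2 (ENSCGRG00001009976) encode derlins, membrane proteins of the channel through which substrates leave the ER. Derl1 means lay between 142 and 153 CPM in the 4 groups, and the 6 h libraries (149 to 158 CPM) lay just above the controls (138 to 148 CPM), a difference of 0.10 (log2, SE 0.05, adjusted p = 0.11). Derl2 means were between 10.3 and 10.9 CPM with overlapping libraries in all groups. For Derl2 the 95% interval at 42.5 °C ran from -0.34 to 0.16, the widest of the 10 genes in that comparison.

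Selenos (ENSCGRG00001011589) encodes a selenoprotein that draws the ATPase p97 (gene Vcp) to the complex. It was at 19.2, 20.4 and 16.6 CPM at 37 °C and at 21, 19.3, 20.6 and 18.5 CPM after 1 h at 40 °C. The 6 h libraries held 22.9, 23.9, 23.7 and 22.8 CPM, and the 42.5 °C libraries held 23.8, 23, 19.1 and 21.3 CPM. All 4 libraries of 40 °C 6 h lay above all controls and above all 40 °C 1 h libraries. Selenos rose by 0.31 (log2, SE 0.08) after 6 h at 40 °C, a gain of 23.6% (adjusted p = 0.0111). Without 37 °C replicate C, the lowest control, the difference was 0.23 with an adjusted p of 0.0638, and with library D included it was 0.27 with an adjusted p of 0.079. At 42.5 °C the difference was 0.20 (SE 0.09, adjusted p = 0.0932), or 0.26 with an adjusted p of 0.0378 without 42.5 °C replicate C.

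Os9 (ENSCGRG00001020659), a lectin that recognises trimmed glycans and delivers their carriers to Sel1l, was the steadiest of the glycoprotein branch. Its group means were 123 to 129 CPM, its libraries overlapped in every comparison, and its log2 differences from 37 °C were between -0.00 and 0.05. The EDEM proteins resemble mannosidases and mark misfolded glycoproteins for degradation by trimming their glycans or by binding them. Their 3 genes did not move together.

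Edem3 (ENSCGRG00001007570) held 344, 343 and 345 CPM at 37 °C, the closest agreement of any of the 10 genes among the controls. It held 320, 334, 342 and 324 CPM after 1 h at 40 °C and 318, 308, 316 and 325 CPM after 6 h. At 42.5 °C it held 276, 262, 254 and 247 CPM, so that the 42.5 °C libraries were the lowest and the controls the highest, with both 40 °C groups between. Edem3 fell by 0.41 (log2, SE 0.04) at 42.5 °C, a loss of 24.9% (adjusted p = 1.44e-06). With library D, where Edem3 was at 239 CPM, among the controls the difference was -0.29 with an adjusted p of 0.126. After 6 h at 40 °C it fell by 0.12 (SE 0.04, adjusted p = 0.0362). That call was lost in 6 of 13 alternatives, with library D included (-0.01, adjusted p = 0.969) and without 37 °C replicate A, B or C or 40 °C 6 h replicate B or C (each -0.12 or -0.11, adjusted p from 0.0729 to 0.114).

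Edem2 (ENSCGRG00001022570) held 91.1, 85.3 and 82.7 CPM at 37 °C and 83.8, 80.8, 75.9 and 82.1 CPM after 1 h at 40 °C. The 6 h libraries held 78.1, 75.9, 74.2 and 72.9 CPM and the 42.5 °C libraries held 73.5, 71.9, 77.7 and 73.9 CPM. Both of these groups lay below all 3 controls. Edem2 fell by 0.20 (log2, SE 0.05) after 6 h at 40 °C, a loss of 13.2% (adjusted p = 0.00793), and by 0.23 (SE 0.05) at 42.5 °C, a loss of 14.6% (adjusted p = 0.00202). The first call was lost without 37 °C replicate A (-0.16, adjusted p = 0.0725). Edem1 (ENSCGRG00001020705) was at 145 ± 2.56, 148 ± 3.54, 155 ± 5.63 and 138 ± 7.79 CPM at 37 °C, after 1 h and 6 h at 40 °C, and at 42.5 °C in turn. Its libraries overlapped the controls in every heated group, and its differences from 37 °C were 0.03, 0.09 and -0.08 (adjusted p of 0.787, 0.179 and 0.193).

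The 10 genes were also counted together against 37 °C. After 1 h at 40 °C, 0 of 10 passed edgeR's adjusted p, where 1.64% of the 10494 genes tested did, and 0 were DEGs, where 0.334% of all genes were. At an unadjusted p under 0.05 there was 1, Herpud1, and DESeq2's Wald test called 0. Herpud1 passed the adjusted p with the replicate letter as a block. After 6 h at 40 °C, 3 of 10 passed the adjusted p, against 29.4% of the 10499 genes tested. Of these, 1 was higher (Selenos), against 14.7% of all genes, and 2 were lower (Edem2 and Edem3), against 14.8%. None of the 10 was a DEG by edgeR in this comparison, where 3.11% of all genes were, although 4 had an unadjusted p under 0.05, and DESeq2's Wald test gave 0 DEGs as well. At 42.5 °C, 4 of 10 passed the adjusted p, against 43.1% of all genes, and all 4 were lower (Syvn1, Edem3, Sel1l and Edem2), against 22.3% of all genes. The shares of the 10 that passed in either direction were thus close to those of all genes. By direction they were less alike at 42.5 °C, where 0 of 10 were higher, against 20.8% of all genes. The median log2 difference of the 10 was -0.00, 0.01 and -0.08 in the 3 comparisons, beside 0.00, 0.00 and -0.00 over all genes tested. The 3 comparisons share their control libraries. Where the libraries of 2 groups are said to lie apart, the share of all genes with such a separation was not counted.

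**Figure D2:**
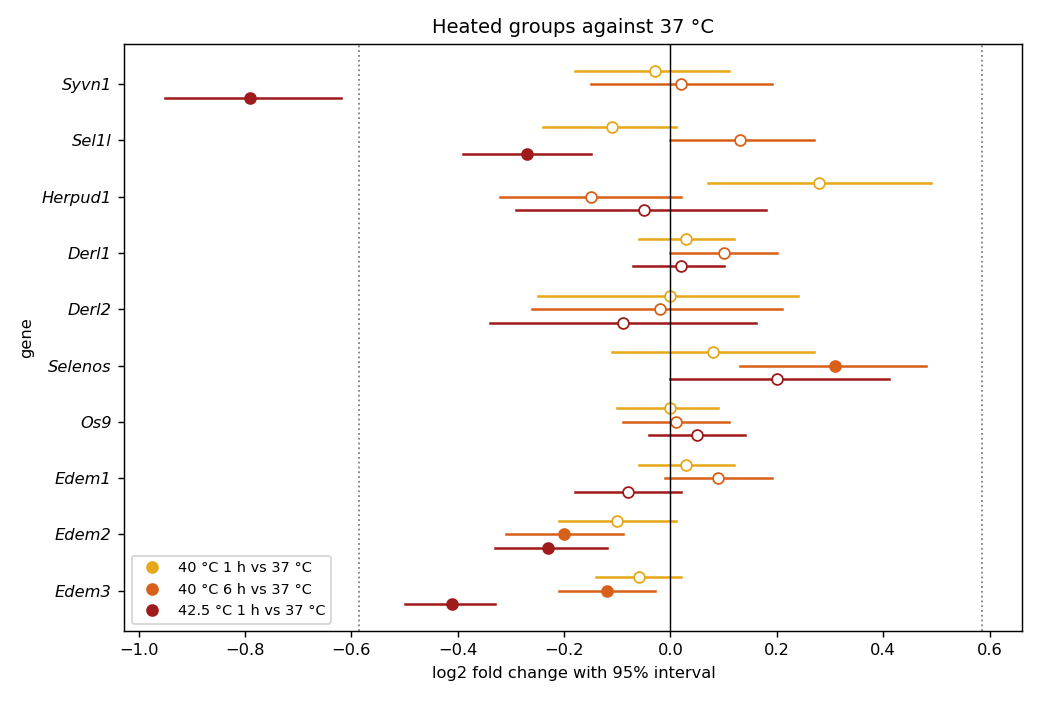
Log2 fold change of each gene (y axis) against 37 °C with its 95% interval (x axis) for the 3 heated groups, from edgeR. Filled points have an adjusted p under 0.05 and dotted lines mark a 1.5-fold change; only Syvn1 at 42.5 °C lies past a dotted line, at -0.79.

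The heated groups were then compared with each other, which needs no control library. No 37 °C culture is labelled with a time, so between lengths at 40 °C heat and time in culture cannot be told apart. Between 1 h and 6 h at 40 °C, Herpud1 fell by 0.43 (log2, SE 0.10), from 41.1 ± 6.28 to 30.6 ± 2.92 CPM (adjusted p = 0.00612), and the 6 h libraries all lay below the 1 h libraries. Sel1l rose by 0.25 (SE 0.06, adjusted p = 0.00539), from 110 ± 6.41 to 131 ± 8.57 CPM, and its libraries did not overlap either. Both differences kept an adjusted p under 0.05 in 14 of 14 fits. Selenos rose by 0.23 (SE 0.07, adjusted p = 0.0348), with libraries of the 2 groups apart. Selenos passed in 7 of 14 fits, and its adjusted p lay between 0.053 and 0.0869 without replicate B, C or D of either group. Derl1 libraries were apart as well, though Derl1 did not pass (0.07, adjusted p = 0.234). In all, 3 of 10 genes passed, against 18.5% of the 10439 genes tested, 2 of them higher (9.45% of all genes) and 1 lower (9.04% of all genes). By edgeR 0 were DEGs, where 1.28% of all genes were, 3 had an unadjusted p under 0.05, and DESeq2's Wald test passed 2 by adjusted p alone and gave 0 DEGs.

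At the same length of 1 h, 42.5 °C differed from 40 °C in 5 of 10 genes, all lower, against 36.1% of the 10441 genes tested in either direction and 19.6% lower. Syvn1 fell by 0.75 (log2, SE 0.08, adjusted p = 2.87e-06) and was the only DEG of the 10, where 5.27% of all genes were DEGs. Edem3 fell by 0.35 (SE 0.04, adjusted p = 1.07e-05). For both of these genes the libraries of the 2 temperatures were apart and the adjusted p stayed under 0.05 in 14 of 14 fits. The other 3 had overlapping libraries, and their calls were lost under several alternatives. Herpud1 fell by 0.33 (SE 0.12, adjusted p = 0.0389), Sel1l by 0.15 (SE 0.05, adjusted p = 0.0261) and Edem2 by 0.13 (SE 0.05, adjusted p = 0.0447). They passed in 7, 9 and 4 of 14 fits. With no library left out, Herpud1 lost its call under DESeq2's Wald test (adjusted p = 0.132), Sel1l in 1 fit of every group (adjusted p = 0.0531), and Edem2 under DESeq2's size factors (adjusted p = 0.0522), its Wald test (adjusted p = 0.0901) and no filter (adjusted p = 0.0516). Herpud1 also lost it without replicate A or C at 40 °C or replicate A, B or C at 42.5 °C (-0.33 to -0.25, adjusted p from 0.0769 to 0.133). Sel1l lost it without replicate B or C at 40 °C or A or C at 42.5 °C (-0.15 to -0.12, adjusted p from 0.0549 to 0.0961), and Edem2 without replicate A, B or D of either group (-0.13 to -0.11, adjusted p from 0.0798 to 0.139). Edem1 differed by -0.11 (SE 0.04, adjusted p = 0.0738), or -0.13 with an adjusted p of 0.0476 without 42.5 °C replicate C.

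The shorter moderate and the longer mild heat differed in temperature and in length at once, so that the part of each cannot be told apart. At 42.5 °C for 1 h, Syvn1 was lower than at 40 °C for 6 h by a log2 difference of -0.81 (SE 0.09, adjusted p = 1.3e-06), Sel1l by -0.41 (SE 0.05, adjusted p = 1.23e-05) and Edem3 by -0.29 (SE 0.04, adjusted p = 3.59e-05). The libraries of the 2 groups were apart for these 3 genes, and each of the 3 passed in 14 of 14 fits. They were apart for Derl1 too, which did not pass (-0.09, adjusted p = 0.0909). Edem1 was lower by -0.17 (SE 0.05, adjusted p = 0.0103), with overlapping libraries, and lost its call without 42.5 °C replicate B (-0.13, adjusted p = 0.0516). These 4 of 10 stood against 47.0% of the 10427 genes tested, 24.5% of them lower, and the 1 DEG, Syvn1, against 8.25%.

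**Figure D3:**
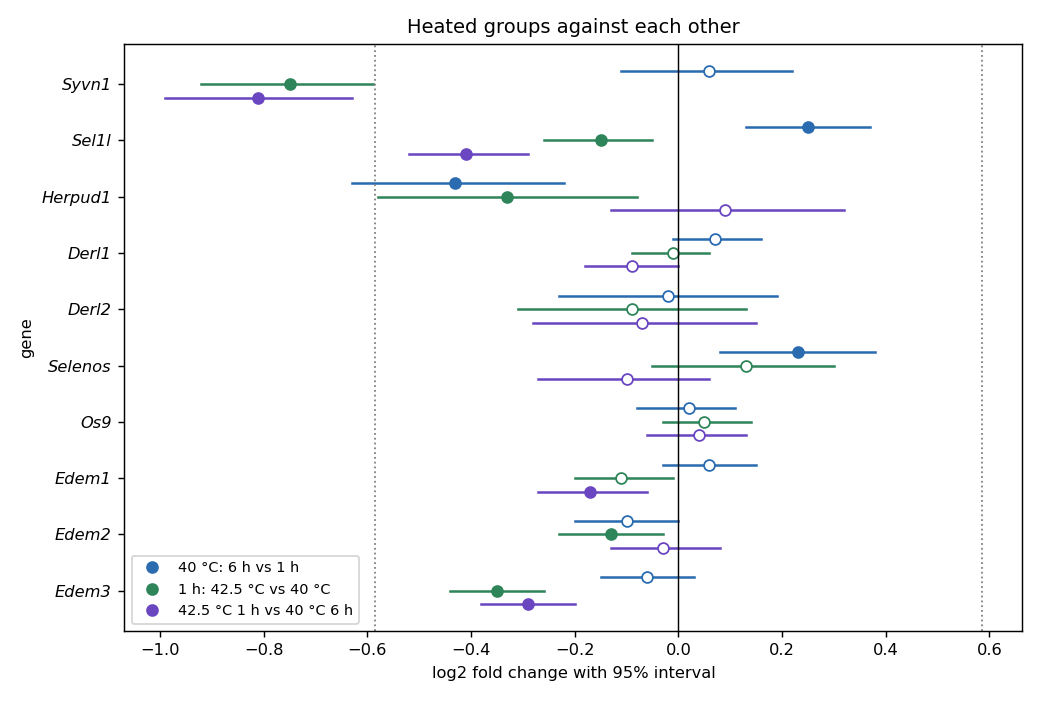
Log2 fold change of each gene (y axis) between heated groups with its 95% interval (x axis), from edgeR, for both lengths at 40 °C (6 h against 1 h), both temperatures at 1 h, and 42.5 °C against the 6 h group. Filled points have an adjusted p under 0.05 and dotted lines mark a 1.5-fold change; Syvn1 stands at -0.75 and -0.81 against the 40 °C groups, and Herpud1 at -0.43 and Sel1l at 0.25 between the lengths at 40 °C.

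The wider ERAD machinery was read from a list of 60 further genes, of which 56 were found and 53 were tested. After 1 h at 40 °C, 0 of 53 passed edgeR's adjusted p, where 1.64% of all genes did. An unadjusted p under 0.05 was seen in 6. After 6 h at 40 °C, 9 rose and 9 fell, and at 42.5 °C 10 rose and 12 fell, with medians of 0.01, 0.03 and 0.02 (log2) in the 3 comparisons with 37 °C. As a share of the list, 34% passed after 6 h and 41.5% at 42.5 °C, beside the 29.4% and 43.1% of all genes.

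Among the other membrane ubiquitin ligases of that list, 9 were tested, and at 42.5 °C 1 rose (Rnf103) and 3 fell, 44.4% of them, close to the 43.1% of all genes that passed in either direction. Rnf145, a ligase known from the turnover of sterol enzymes, fell by 1.35 (log2, SE 0.09, adjusted p = 1.85e-08), from 44.2 ± 1.69 to 17.5 ± 2.41 CPM. Rnf139 (also called Trc8), a ligase of the same membrane, fell by 0.63 (SE 0.07, adjusted p = 3.74e-06), from 120 ± 3.7 to 78.1 ± 8.86 CPM. Both were DEGs, the only ones of the 53 in this comparison, where 7.51% of all genes tested were DEGs. Tmem129, named after its value was seen, fell by 0.22 (SE 0.06, adjusted p = 0.0128). Rnf103 rose by 0.39 (SE 0.10, adjusted p = 0.00566).

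Of the 8 glycan and redox factors tested at 42.5 °C, 2 rose and 2 fell, with a median of 0.11 (log2). These are 50% of the class, beside 43.1% of all genes. The 2 that fell were Txndc11, a thioredoxin-like partner of the EDEM proteins, by 0.46 (log2, adjusted p = 3.68e-06), and Man1b1, a mannosidase of early glycan trimming, by 0.35 (adjusted p = 3.46e-05). Of the 19 tested factors that pull substrates out and bring them to the proteasome, 5 rose and 4 fell, with a median of 0.02. These are 47.4% of the class, close to the share of all genes. Among them Faf1 rose by 0.34 (adjusted p = 0.00016), Ubxn4 by 0.26 (adjusted p = 0.000922) and Vcp itself by 0.15 (adjusted p = 0.00302). Faf1 and Ubxn4 encode partners of p97. In the same class Sgta, a chaperone cofactor of the cytosol, fell by 0.33 (adjusted p = 6.03e-05). Erlin1, a membrane cofactor of sterol-linked degradation, rose by 0.18 (adjusted p = 0.0072).

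After 6 h at 40 °C, the genes of the list that rose with the smallest adjusted p were Stt3b (0.26, adjusted p = 0.000637), Faf1 (0.28, adjusted p = 0.000704), Ubxn4 (0.27, adjusted p = 0.000921), Erlin1 (0.23, adjusted p = 0.002) and Dnajb2 (0.29, adjusted p = 0.0062), each given as a log2 difference from 37 °C. Stt3b encodes a catalytic subunit of oligosaccharyltransferase. Those that fell were Ngly1 (-0.59, adjusted p = 0.00025), Dnajb12 (-0.31, adjusted p = 0.000347), Get4 (-0.21, adjusted p = 0.00509), Atxn3 (-0.27, adjusted p = 0.00684) and Uggt2 (-0.35, adjusted p = 0.00851). Ngly1, the cytosolic enzyme that strips glycans from extracted proteins, went from 19.4 ± 1.2 to 12.9 ± 1.2 CPM. It was a DEG, where 3.11% of all genes tested were DEGs. The other DEG was Dnajb14, named after its value was seen, which rose by 0.70 (SE 0.20, adjusted p = 0.0145) at a low level, 1.71 ± 0.343 to 2.77 ± 0.0999 CPM, with 19 to 24 counts per library at 37 °C and 32 to 37 after 6 h.

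Lists of neighbouring steps gave other counts. Of 16 ER folding factors, 1 rose after 1 h at 40 °C (Manf, by 0.25, adjusted p = 0.0276), 14 rose after 6 h and 9 rose at 42.5 °C, and by edgeR 0 fell in any of these comparisons (0 lower with an unadjusted p under 0.05). The lists were not run with another tool. Among all genes tested, 1.07%, 14.7% and 20.8% rose in the same comparisons, beside 6.25%, 87.5% and 56.2% of this list. Its median log2 differences from 37 °C were 0.09, 0.52 and 0.15. Hspa5, which encodes the ER chaperone BiP, rose by 1.13 (SE 0.10, adjusted p = 1.6e-06) after 6 h at 40 °C, from 2080 ± 70.2 to 4550 ± 916 CPM, and Hsp90b1, the ER form of Hsp90, by 0.75 (SE 0.07, adjusted p = 2.51e-06). In that group the 10 ERAD genes had a median of 0.01 and a highest difference of 0.31 (Selenos). Of 28 proteasome subunits tested, 0 passed edgeR's test after 1 h at 40 °C (0 with an unadjusted p under 0.05), 1 fell after 6 h (Psmc5, by 0.13, adjusted p = 0.0487) and 11 rose at 42.5 °C, with medians of 0.02, 0.01 and 0.08. These are 3.57% of the list after 6 h, beside the 29.4% of all genes that passed in either direction, and 39.3% at 42.5 °C, beside 43.1% in either direction and 20.8% higher. Manf and Psmc5 were named after their values were seen. These counts are descriptions, and the lists were not tested against each other.

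**Figure D4:**
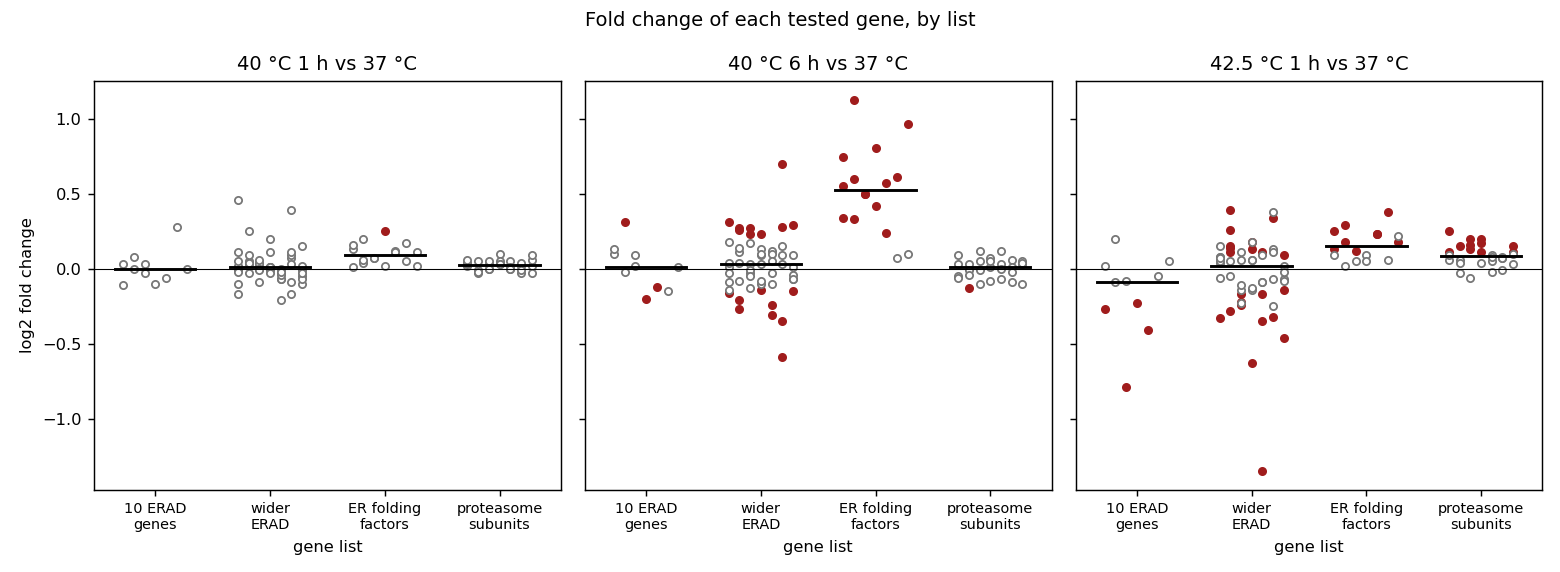
Log2 fold change against 37 °C (y axis) of every tested gene of the 10 ERAD genes, the wider ERAD list (53), the ER folding factors (16) and the proteasome subunits (28) (x axis), in 3 panels for the heated groups. Filled points have an edgeR adjusted p under 0.05, open points do not, and bars are medians; the folding factors have a median of 0.52 after 6 h at 40 °C, where the 10 genes have 0.01.

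The regulators of the UPR were measured in the same libraries. Xbp1, the transcription factor known to drive many ERAD genes, rose by 0.60 (log2, SE 0.09, adjusted p = 0.000116) after 6 h at 40 °C, and it differed by 0.33 (adjusted p = 0.0745) after 1 h and -0.01 (adjusted p = 0.943) at 42.5 °C. Gene counts do not show its splicing, which controls its activity. Atf6, the membrane-bound factor of another branch, fell by 0.33 (adjusted p = 0.000356) after 6 h, with -0.12 (adjusted p = 0.2) and -0.00 (adjusted p = 0.961) after 1 h at 40 °C and 42.5 °C. Ern1, which encodes the sensor IRE1, rose by 0.41 (adjusted p = 0.00445) at 42.5 °C and differed by 0.27 (adjusted p = 0.214) and 0.00 (adjusted p = 0.979) after 1 h and 6 h at 40 °C. The sensor gene Eif2ak3 (PERK) differed by 0.08 to 0.09 in the 3 comparisons, with no adjusted p under 0.05. Downstream of it, Atf4 fell by 0.75 (adjusted p = 2.68e-06) and Ddit3 rose by 0.47 (adjusted p = 0.0188) after 6 h at 40 °C. Atf4 differed by -0.24 (adjusted p = 0.448) after 1 h at 40 °C and 0.08 (adjusted p = 0.449) at 42.5 °C. Ddit3 differed by 0.63 (adjusted p = 0.123) and 0.44 (adjusted p = 0.12) in the same groups. All of these are RNA levels, and the activity of the regulators and of their branches was not measured in these libraries.

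Across the 15 libraries the 10 genes did not share one profile. Each gene's log2 CPM was centred and scaled, and the correlation of each with the mean of the other 9 was taken as a description over libraries that share groups. Pearson's r was 0.82 for Syvn1, 0.69 for Edem3, 0.66 for Edem1 and 0.53 for Sel1l, 0.32 for Derl1, between -0.14 and 0.06 for Edem2, Derl2, Herpud1 and Selenos, and -0.40 for Os9. The mean of the 10 scaled values was between -0.72 and -0.38 in the 42.5 °C libraries and between 0.30 and 0.45 in those of 40 °C for 6 h. It was between -0.10 and 0.32 in the 37 °C libraries and between -0.06 and 0.36 in those of 40 °C for 1 h, so that the 42.5 °C libraries stood apart and the other groups overlapped. The genes outside the list whose levels followed this mean most closely, among 10400 genes, were Adcy6 (r = 0.957), Mavs (0.956), the unnamed ENSCGRG00001017407 (0.949), DICER1 (0.948) and Tsr1 (0.948). They were picked as the highest of all these correlations, with a mean that mainly sets the 42.5 °C libraries apart. A link with the 10 genes was not tested.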

How the data were processed

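RNA was sequenced as paired-end reads on an Illumina NextSeq. The authors trimmed and mapped the reads to the Chinese hamster genome CHOK1GS_HDv1 and counted them per gene in CLC Genomics Workbench. Its version, the annotation, the strand setting and the treatment of reads with several matches are not given in the sources used here. The submitters' processing notes also name bcl2fastq. The authors deposited raw counts per gene, without normalization, and no other values were used.

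Groups were compared in R 4.3.3 with edgeR 4.0.16 (filterByExpr, TMM, glmQLFit and glmQLFTest) on the libraries of the 2 groups, in 6 comparisons. On simulated data with 200 changed genes the same code was tested first. The study's methods call the libraries of a group biological repeats. They do not say whether these cultures were set up on separate days, so p-values measure the spread between these libraries. Counting limits of 3 counts cover counting error only. The alternatives were DESeq2 1.42.0 (its size factors and its Wald test), no filter, all 4 controls, a single fit of every group, a block for the replicate letter, no minimum fold, and each library left out.

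The 10 genes and the gene lists were chosen with earlier results of these data known. Named genes of the wider list are up to 5 higher and 5 lower with the smallest adjusted p in each comparison with 37 °C, and the other lists name Hspa5, Hsp90b1 and all UPR regulators. The 5 genes with the closest profile were taken by Pearson's r of log2 CPM (prior count of 2). The names Marchf6, Hm13, Ube2j2 and Ufd1 were not matched. RefSeq was used for gene overlaps only. Promoter motifs were not analysed here.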

Additional observations from a re-analysis of the deposited data

Results flagged for a closer look

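Each of the 10 genes was checked in each of the 4 groups, 40 checks in all, for a library whose gap to its nearest neighbour was large for the range of its 4 libraries by Dixon's 95% criterion. Chance alone gives about 1 in 20 such gaps. The 37 °C library D stood apart in Edem3, at 239 CPM against a nearest control of 343 CPM (0.974 of the range), and in Edem1, at 111 CPM against 144 CPM (0.874 of the range). This library was left out of the comparisons. In the 40 °C 6 h group, library B was highest for Os9, at 130 CPM against 124 CPM (0.846 of the range).

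The effect of heat on Syvn1 differed between the heated groups. The direct comparison of 42.5 °C with 40 °C at 1 h gave a log2 difference of -0.75 (edgeR adjusted p = 2.87e-06), and that of 42.5 °C for 1 h with 40 °C for 6 h gave -0.81 (edgeR adjusted p = 1.3e-06). In each, 4 of 4 libraries at 42.5 °C lay below 4 of 4 at 40 °C.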

How the results depend on the processing

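The number of DEGs among the 10 genes was the same under every alternative but the threshold on adjusted p alone, which gave 3 genes after 6 h at 40 °C, 4 at 42.5 °C, 3 for 6 h against 1 h, 5 for 42.5 °C against 40 °C at 1 h and 4 for 42.5 °C against 40 °C for 6 h. Counts by adjusted p were added after the data were seen. With all 4 controls they were 1 after 6 h at 40 °C and 2 at 42.5 °C, and the 42.5 °C against 40 °C count at 1 h was 3 with DESeq2's Wald test. Leaving out 1 library gave 0 after 1 h at 40 °C, 1 to 4 after 6 h, 4 to 5 at 42.5 °C, 2 to 3 for 6 h against 1 h, 2 to 4 for 42.5 °C against 40 °C at 1 h, and 3 to 4 for 42.5 °C against 40 °C for 6 h. The lowest counts for 6 h against 37 °C, 1 each, came without 37 °C replicate A or C. Among all genes, DEGs numbered 35, 326 and 786 against 37 °C after 1 h at 40 °C, 6 h at 40 °C and 42.5 °C, and 3, 218 and 639 with all 4 controls, while those after 1 h at 40 °C were 23 to 56 with 1 library left out.

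The sources used here do not say whether a replicate letter marks a shared day or batch. The correlation of same-letter deviations from the group means was -0.05 to 0.18 over 21 pairs. For 1 h at 40 °C against 37 °C it was 0.18, 0.09 and 0.16 for letters A, B and C. Pairs of different letters were not measured, so these values cannot decide whether the letters pair the libraries. With the letter as a block, 1 gene passed the adjusted p after 1 h at 40 °C, Herpud1 (0.35, adjusted p = 0.00464), and 3 passed for 42.5 °C against 40 °C at 1 h, where Herpud1 (-0.33, adjusted p = 0.0644) and Edem2 (-0.13, adjusted p = 0.0503) did not. Herpud1 then also passed after 6 h at 40 °C (-0.22, adjusted p = 0.0333) and at 42.5 °C (-0.19, adjusted p = 0.0395), as did Selenos at 42.5 °C (0.22, adjusted p = 0.0345).

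Some differences that did not pass in the reported fit changed sign. With all 4 controls these were Sel1l (0.08), Derl1 (-0.02) and Edem3 (0.05) after 1 h at 40 °C, Os9 (-0.04) after 6 h, and Derl1 (-0.03) and Edem1 (0.02) at 42.5 °C. With 1 library left out they ranged, against 37 °C, from -0.02 to 0.07 for Syvn1, -0.12 to 0.06 for Derl2 and -0.01 to 0.03 for Os9 after 6 h, from -0.10 to 0.08 for Derl2 and -0.03 to 0.01 for Os9 after 1 h at 40 °C, and from -0.19 to 0.02 for Herpud1 at 42.5 °C. Between heated groups Derl2 ranged from -0.07 to 0.03 for 6 h against 1 h and Herpud1 from -0.04 to 0.17 for 42.5 °C against 40 °C for 6 h. In 1 fit over all groups Derl1 passed after 6 h at 40 °C (0.11, adjusted p = 0.0456). The causes were not tested. Depth limits Derl2 most, with counts from 103 upward.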
